A study of Bos taurus with 12 samples.

Results

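Indian hedgehog (IHH), parathyroid hormone-related protein (PTHLH) and the PTHLH receptor PTH1R form the feedback loop that sets when growth plate chondrocytes stop dividing and enlarge. All probe sets whose platform gene symbol is IHH, PTHLH or PTH1R were taken. Each gene had 1 probe set, so the loop rests on 3 probe sets of the 24016 on the array that are not controls.

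RNA was measured in the hypertrophic zone (HZ) fraction and in the reserve zone (RZ) fraction of growth plate cartilage from the distal metacarpus of male dairy cattle under 10 months of age. Both fractions came out of the same collagenase P digestion of 4 hours and were then told apart by buoyant density, HZ being the light cells and RZ the dense ones. There were 6 HZ and 6 RZ arrays, in pairs numbered 1 to 6. A density fraction is enriched for a zone and is not a dissected zone, and the labels do not say how many animals stand behind a pair, so the p-values describe the spread between these pairs.

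As background, IHH is a secreted ligand made by chondrocytes that are leaving the cell cycle. It acts through the receptor PTCH1 and the signal transducer SMO and raises the production of PTHLH by cells nearer the end of the bone. PTHLH diffuses back, binds PTH1R on dividing and early enlarging chondrocytes, raises cyclic AMP and holds off hypertrophy, which in mice runs through HDAC4 and its target MEF2C.

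In HZ, transcripts of the ligand IHH and of the receptor PTH1R rose, and transcripts of the opposing ligand PTHLH fell. IHH was 2.91-fold higher, PTH1R was 1.89-fold higher and PTHLH was 1.685-fold lower, each in the same direction in 6 of 6 pairs. All 3 passed the test, 2 upward and 1 downward. Of all probe sets on the array 6.22% passed, 3.26% higher and 2.96% lower in HZ. A consistent sign over all 6 pairs was found in 14.0% of all probe sets, and 3 of 3 here had it. None of the 3 had HZ and RZ arrays that did not overlap, which 2.89% of all probe sets did. Values are signals recovered from the deposited ratios, on a scale where the median probe set of each array reads 96.7, and log2 differences and folds are of signal + 16. A gene passed when its Benjamini-Hochberg adjusted p over all 24016 probe sets was under 0.05 in limma with the pair as a block. In RNA from a mixed fraction, fewer cells of a type and less RNA per cell cannot be told apart.

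IHH, the hedgehog ligand of the growth plate, had a signal of 2558 on its lowest, 5732 on its median and 9807 on its highest HZ array, against 894, 1848 and 3792 in RZ. The means were 5892 ± 2468 in HZ and 2073 ± 1056 in RZ (SD, n = 6 each). The ranges overlapped because of HZ-2, the lowest HZ array, which lay under RZ-3 (2758) and RZ-5 (3792). Within pairs the HZ signal was always the higher. The log2 difference was 2.29 in pair 1, 0.97 in pair 2, 0.93 in pair 3, 1.80 in pair 4, 1.37 in pair 5 and 1.88 in pair 6. The smallest rises were thus in pairs 2 and 3 and the largest in pair 1, where the RZ signal was the lowest of all. The mean difference was 1.54 ± 0.20 (SE, limma adjusted p = 0.0045), and 113 probe sets on the array had a larger rise. Each of the 6 fits that dropped a pair kept the call, at 1.39 to 1.66.

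PTH1R, the receptor for PTHLH and for parathyroid hormone, had a lowest, median and highest signal of 1274, 1904 and 3765 in HZ, against 758, 1052 and 1812 in RZ. Mean signals were 2249.9 ± 1013 in HZ and 1137 ± 391 in RZ (SD, n = 6 each). Overlap came from the spread between pairs. The HZ arrays of pairs 1, 2 and 4 read 1473, 1274 and 1605, under the 1812 of RZ-5. The pair differences were the most even of the 3 genes, from 0.60 in pair 2 to 1.42 in pair 6, with an SD of 0.29. The mean was 0.92 ± 0.15 on the log2 scale (SE, limma adjusted p = 0.0106), and leaving out a pair gave 0.82 to 0.99 and kept the call in 6 of 6 fits. Without the pair block the same difference had an SE of 0.29 and an adjusted p of 0.107.

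PTHLH, the ligand that delays hypertrophy, ran the other way at lower signals. Its lowest, median and highest values were 89.6, 166 and 317 in HZ, against 219, 292 and 499 in RZ. On average it read 197 ± 97.0 in HZ and 325 ± 104 in RZ (SD, n = 6 each). Arrays HZ-2 (316) and HZ-3 (317) were higher than 4 of the 6 RZ arrays. Each was nevertheless lower than the RZ array of its own pair, at 499 in RZ-2 and 396 in RZ-3. The log2 difference was -1.16 in pair 1, -0.63 in pair 2, -0.31 in pair 3, -0.64 in pair 4, -0.61 in pair 5 and -1.17 in pair 6. Pairs 1 and 6 therefore fell about alike and pair 3 least.

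The mean PTHLH difference was -0.75 ± 0.16 (SE, limma adjusted p = 0.0275), the weakest of the 3, with 808 probe sets falling further. Its call was lost when pair 1, 2, 4, 5 or 6 was left out, at adjusted p = 0.0897, 0.0553, 0.0699, 0.0716 and 0.0796, and held without pair 3, at 0.0270. Over these 6 fits the difference stayed between -0.84 and -0.67. Without the pair block it had an adjusted p of 0.197. An exact two-sided sign-flip test over the 6 pairs gave p = 0.03125 for each of IHH, PTHLH and PTH1R, which is the smallest p that 6 pairs allow.

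**Figure D1:**
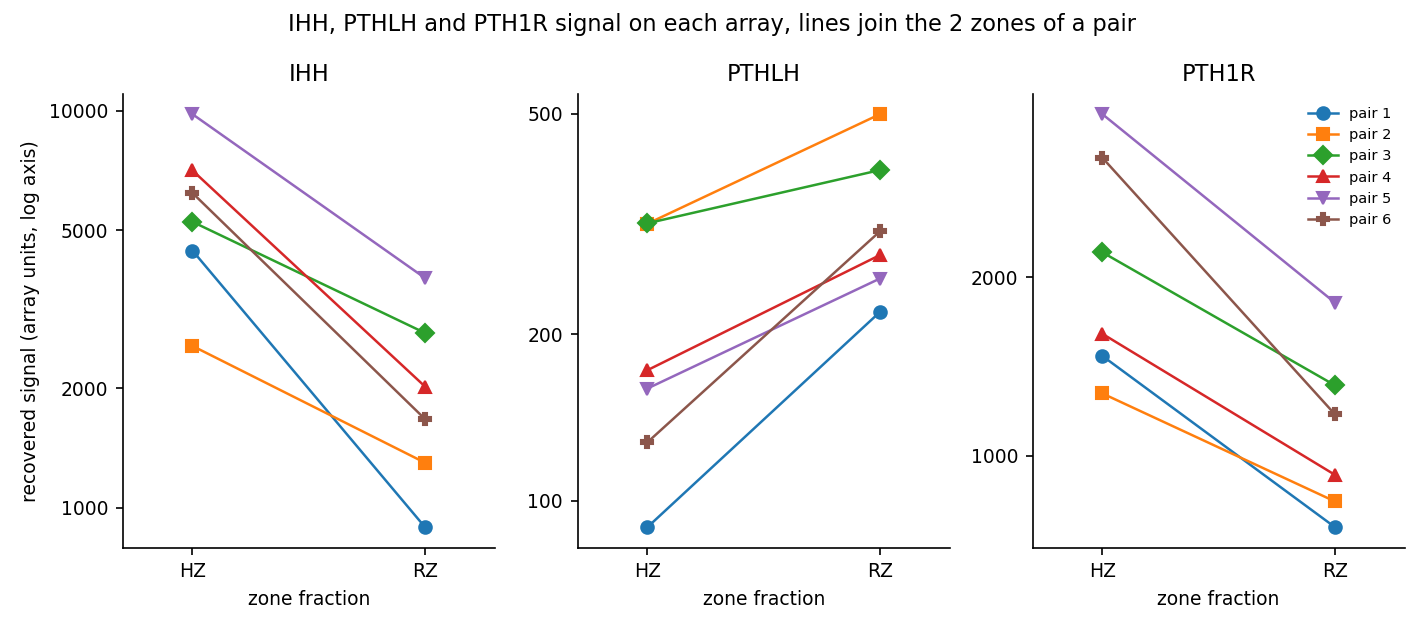
Recovered signal (log axis) of IHH, PTHLH and PTH1R on each of the 12 arrays, HZ left and RZ right, with a line joining the 2 arrays of a pair. All IHH and PTH1R lines run downward to RZ and all PTHLH lines run upward, while the zone ranges overlap for each gene, as with HZ-2 for IHH at 2558 beside RZ-5 at 3792.

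The pair took more of the variation than the zone did for PTHLH, slightly more for PTH1R, and less for IHH. For PTHLH the pair took 58.2% of the variation in log2 signal, the zone 35.7% and the remainder 6.11%. For PTH1R these shares were 50.5%, 45.6% and 3.85%, and for IHH 34.7%, 59.2% and 6.18%. In PTHLH and PTH1R the HZ and the RZ array of a pair stood on the same side of their zone means in 6 of 6 pairs. In IHH this held in 4 of 6 pairs, the exceptions being pairs 3 and 6. Pair 5 was the highest in both zones for IHH and PTH1R. For PTHLH, pair 2 was the highest of the RZ arrays and pair 1 the lowest in both zones.

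Set side by side, IHH rose more than PTH1R in 6 of 6 pairs. IHH and PTH1R moved together over the 12 arrays, with Pearson r = 0.91. Within zones their r was 0.77 over the 6 HZ arrays and 0.92 over the 6 RZ arrays, so the likeness was also present among arrays of 1 zone. IHH and PTHLH had r = -0.57 over the 12 arrays, with -0.39 in HZ and 0.02 in RZ. Over the 6 pair differences that r was -0.84, with pairs 1 and 6 having the largest IHH rises and the largest PTHLH falls. For PTH1R and PTHLH the r was -0.50 over the arrays and -0.67 over the pair differences. These values describe arrays that share zone, pair and scaling, and carry no test.

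**Figure D2:**
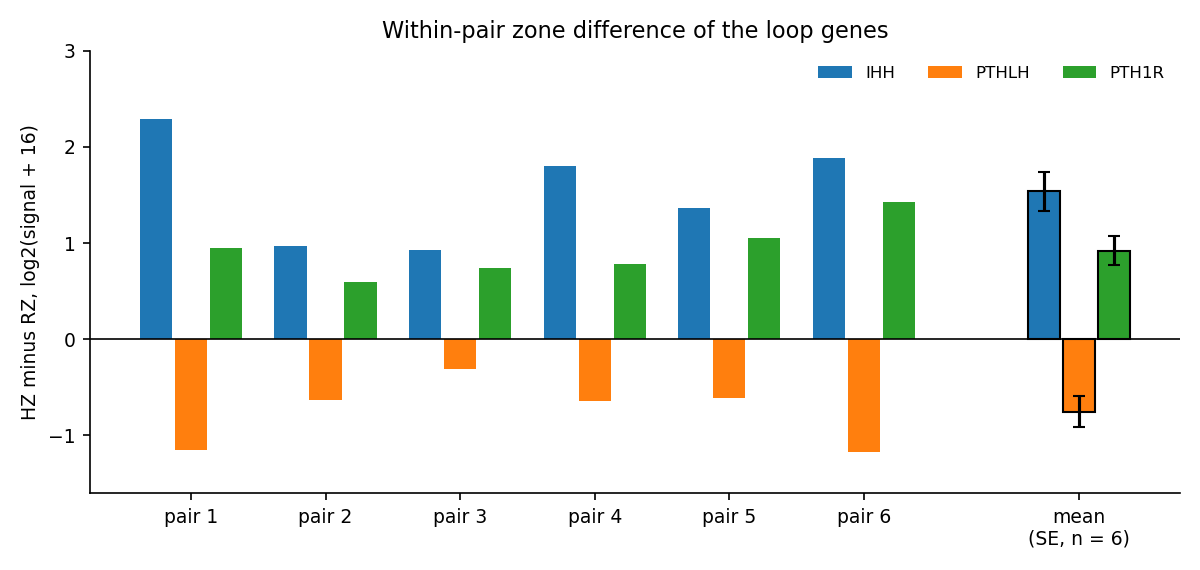
HZ minus RZ difference of log2(signal + 16) for IHH, PTHLH and PTH1R in each pair, with the mean and its limma SE at the right. IHH and PTH1R are above 0 and PTHLH below 0 in every pair, pairs 1 and 6 having the largest PTHLH falls at -1.16 and -1.17.

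The fractions carried the marks of their zones only in part. Of 10 measured hypertrophic markers, each given by its brightest probe set, 4 rose (MMP13, ALPL, SCIN and MEF2C) and 0 fell. The collagenase MMP13 read 4728 ± 864 in HZ and 1186 ± 430.5 in RZ (SD, n = 6 each). IBSP did not pass by its brightest probe set, at 0.14. Its other probe set rose by 2.20 ± 0.21 (SE, limma adjusted p = 0.00125), with means of 13565 in HZ and 2981 in RZ. The other ALPL probe set did not pass, at 0.70 (limma adjusted p = 0.362). COL10A1, the defining collagen of hypertrophy, did not pass and read 21620 ± 4513 in HZ and 20147 ± 4698 in RZ (log2 difference 0.11 ± 0.16, SE, limma adjusted p = 0.755). Of 5 reserve zone markers SFRP5, APOE and CLU fell and MGP rose, and of 6 measured proliferation genes BUB1B, MCM3 and UHRF1 fell, with summed signals of 1441 to 3449 in HZ and 2822 to 3264 in RZ. With a pair dropped, MMP13, SCIN, MEF2C, SFRP5 and CLU kept their calls each time. ALPL and MCM3 kept theirs only without pair 3, while APOE lost its call without pairs 1, 4 or 6, MGP without pairs 1, 4 or 5, BUB1B without pairs 1, 2, 4 or 5, and UHRF1 without pair 5. The other probe sets of MGP (0.35 to 0.69), MCM3 (-0.59) and UHRF1 (-1.44) did not pass. Of 7 measured chondrocyte markers, by their brightest probe set, 0 rose, 1 fell and 6 did not pass. Of the other COL11A1 probe sets 1 rose, by 0.76 ± 0.15 (SE, limma adjusted p = 0.0189). The cartilage collagen COL2A1 and aggrecan (ACAN) were bright in both fractions, and neither passed. MATN1 was the 1 that fell, by 0.84 ± 0.20 (SE, limma adjusted p = 0.0404), and it kept its call only without pair 6. Its other probe set did not pass, at -0.48.

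Some markers of other cells differed by zone as well, most of them osteoclast or macrophage markers. Of all probe sets 6.22% passed in either direction. The part of these cells in the loop genes was not tested. Of 8 osteoclast or macrophage markers 5 rose (CTSK, ACP5, C1QA, C1QB and CSF1R) and PTPRC fell. Their summed signals were 8410.2 to 11042 in HZ and 3337 to 7825 in RZ. CD14 did not pass by its brightest probe set, at -0.81, but its other probe set fell, at -1.02 (limma adjusted p = 0.0254). The other ACP5 probe sets did not pass, at 0.79 and 0.49, nor did those of PTPRC, at -0.24 and 0.19. Of 5 osteoblast markers DMP1 rose and 4 did not pass. Those 4 were lower in HZ, BGLAP at -0.99, COL1A1 at -1.05, COL1A2 at -1.12 and SOST at -0.56. The osteoblast sum ran from 1366 to 4805 in HZ and from 1487 to 17917 in RZ. It was higher in HZ in 0 of 6 pairs. Of 6 endothelial markers PECAM1 fell and 5 did not pass, with sums of 192 to 529 in HZ and 489 to 757 in RZ. Of 6 red cell and granulocyte markers CATHL1 fell and 5 did not pass. Their sums were 213 to 1839 in HZ and 417 to 9467 in RZ. None of 8 fibroblast and perichondrium markers passed, with sums of 14434 to 18819 in HZ and 15786 to 31725 in RZ. With a pair dropped, CTSK and C1QB kept their calls each time, and C1QA lost its call without pair 4 or 6. ACP5 lost its call without pairs 1, 3, 4 or 5, and CATHL1 without pairs 1, 2, 5 or 6. CSF1R and DMP1 passed only without pair 2, PTPRC only without pair 5 and PECAM1 only without pair 3 (adjusted p up to 0.133 in the other fits). No measured marker was at 0 throughout.

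Arrays also differed in ways that cross the zones. The pairs fell into 2 sets by the step between deposited ratios, 0.0237 to 0.0318 in pairs 1 and 2 and 0.00884 to 0.0110 in pairs 3 to 6, although no label names a batch. IHH differed by 1.63 in pairs 1 and 2 and by 1.49 in pairs 3 to 6, PTHLH by -0.89 and -0.68, and PTH1R by 0.77 and 0.998. The difference between the sets did not pass for any of the 3 in limma (adjusted p = 0.999 each). The log2 ratio of 3′ over 5′ actin probes, which is higher in degraded RNA, averaged 3.03 ± 0.69 for HZ arrays, against 2.34 ± 0.45 for RZ arrays (SD, n = 6 each; exact sign-flip p = 0.0625). That of GAPDH was 0.52 ± 0.65 in HZ and 0.10 ± 0.28 in RZ, the highest being HZ-3 at 1.46 and HZ-4 at 1.21 (exact sign-flip p = 0.125). The same ratio of EF1A probes ran the other way, at -2.50 ± 0.39 in HZ and -2.26 ± 0.30 in RZ, HZ being the higher in 1 of 6 pairs (exact sign-flip p = 0.406). Without pairs 3 and 4 the differences were as large, at 1.63 for IHH, -0.89 for PTHLH and 1.003 for PTH1R, but with 4 pairs none passed (adjusted p = 0.0535, 0.0749 and 0.0653).

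Around the loop, 155 other genes were listed by role and 91 of them were measured. Of these 6 rose, 3 fell and 82 did not pass, so that 9.89% passed, against 6.22% of all probe sets. The 2 shares are of unlike sets, since the 6.22% counts every probe set, dim ones included. With dim probe sets filtered out, 1978 of 17741 passed, a larger share than the 9.89%, though the listed genes were not filtered in this way. Whether the listed genes passed more often than other genes of like signal was not tested. Their median log2 difference was -0.05, beside -0.01 for all probe sets. A gene with several probe sets is represented by the brightest.

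On the side of the hedgehog signal, the gene that changed with IHH was DISP1, which encodes the membrane protein Dispatched that lets cells release lipid-bearing hedgehog ligand. Its signal had a lowest, median and highest value of 763, 1656 and 2401 in HZ, against 329, 393 and 455 in RZ. The groups did not overlap. Mean signals were 1624 ± 605 in HZ and 394 ± 54.0 in RZ (SD, n = 6 each), a log2 rise of 1.91 ± 0.19 (SE, limma adjusted p = 0.00125). The second DISP1 probe set read 430.1 ± 156 in HZ and 63.9 ± 28.5 in RZ and rose by 2.47 ± 0.21 (SE, adjusted p = 0.00071). Both DISP1 probe sets were higher in HZ in 6 of 6 pairs and kept their call whichever pair was dropped. SHH, a related ligand, was dim and did not pass, at -0.11 ± 0.42 (SE).

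On the receiving side no measured gene passed. Of 4 measured hedgehog receptors and co-receptors and of 5 regulators of the GLI factors, 0 passed, with medians of -0.13 and 0.07. PTCH1, the receptor that is itself a target of hedgehog signalling, was near the bottom of the range, at 11.2 ± 7.24 in HZ and 13.9 ± 10.7 in RZ (SD, n = 6 each), so a change in it could not be measured with this probe set. SMO read 138 ± 67.4 in HZ and 149.7 ± 57.4 in RZ (SD, n = 6 each), with a log2 difference of -0.17 ± 0.23 (SE). GLI1, GLI2, GLI3 and HHIP were not analysed here. Of 6 genes of transport in the primary cilium, the organelle through which hedgehog acts, 0 passed.

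Among 7 measured genes of the heparan sulphate chains and proteoglycans that bind hedgehog, EXT1 rose and GPC4 fell. EXT1, a polymerase of these chains, read 499 ± 207 in HZ and 227 ± 19.5 in RZ (SD, n = 6 each), a log2 rise of 0.999 ± 0.22 (SE, limma adjusted p = 0.0276). Of its other probe sets 1 also passed, at 1.10, and 1 did not, at 0.64. The glypican GPC4 fell by 0.87 ± 0.20 (SE, adjusted p = 0.0366). Both lost the call without pairs 1, 4, 5 or 6 and kept it without pair 2 or 3, with adjusted p of up to 0.0883 and 0.113.

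On the side of the PTHLH signal, PTH, the endocrine ligand of the same receptor, was near the floor in both fractions and did not pass. Of 16 measured genes of receptor coupling and desensitisation, NHERF1 rose and 15 did not pass (median -0.04). NHERF1 is a scaffold protein that binds the tail of PTH1R. Its signal was 96.7 to 226 in HZ, with a median of 168, against 38.6 to 127 in RZ, with a median of 75.6. The ranges overlapped slightly, yet HZ was higher in 6 of 6 pairs, by 0.90 ± 0.18 (SE, limma adjusted p = 0.0224). It lost the call without pairs 1, 4 or 5 (adjusted p up to 0.0664). GNAS, the stimulatory G protein through which PTH1R raises cyclic AMP, did not pass at 0.07 ± 0.14.

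Further along that route, CREM rose among 13 genes of protein kinase A and cyclic AMP, by 0.69 ± 0.17 (SE, limma adjusted p = 0.0460). CREM encodes cyclic AMP-responsive transcription factors. The other 5 CREM probe sets gave -0.10 to 0.16 and did not pass, and the call was lost whichever pair was left out (adjusted p 0.0625 to 0.124). Among 10 genes of the HDAC4 and MEF2 group, MEF2C rose, a transcription factor that drives hypertrophy in mice and is held in check there by HDAC4. It read 114 ± 49.2 in HZ and 43.4 ± 26.3 in RZ (SD, n = 6 each), a log2 rise of 1.14 ± 0.20 (SE, adjusted p = 0.0114). The kinase SIK3, HDAC4, RUNX2 and SOX9 were not analysed here.

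Of 6 transcription factors that drive or brake hypertrophy and of 9 genes known to respond to PTHLH, 0 passed. DLX5 and LEF1 came nearest in limma, at 0.55 (adjusted p = 0.0573) and 0.75 (adjusted p = 0.0664). Of 5 proteases that can mature or degrade PTHLH, MME fell. MME, neprilysin, cleaves small peptides and read 50.7 ± 26.1 in HZ and 109.5 ± 37.3 in RZ (SD, n = 6 each; log2 difference -0.98 ± 0.24, SE, adjusted p = 0.0391). Its other probe set gave -0.17, and of the 6 fits that dropped a pair only the one without pair 3 kept its call (adjusted p of up to 0.111 in the others).

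TGF-beta raises PTHLH in cultured mouse bones, and of 7 genes of that input SMAD3 rose and TGFB1 fell. SMAD3, which relays TGF-beta signals, rose by 1.41 ± 0.19 (SE, limma adjusted p = 0.00495), although its second probe set gave 0.15. TGFB1 fell by 0.71 ± 0.16 (SE, adjusted p = 0.0294) and was lower in 6 of 6 pairs. It lost its call without pairs 1, 2, 4 or 6 (adjusted p up to 0.0934) and without the pair block (adjusted p = 0.708). TGFB2 did not pass, at -0.49 ± 0.14 (SE, adjusted p = 0.0695).

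**Figure D3:**
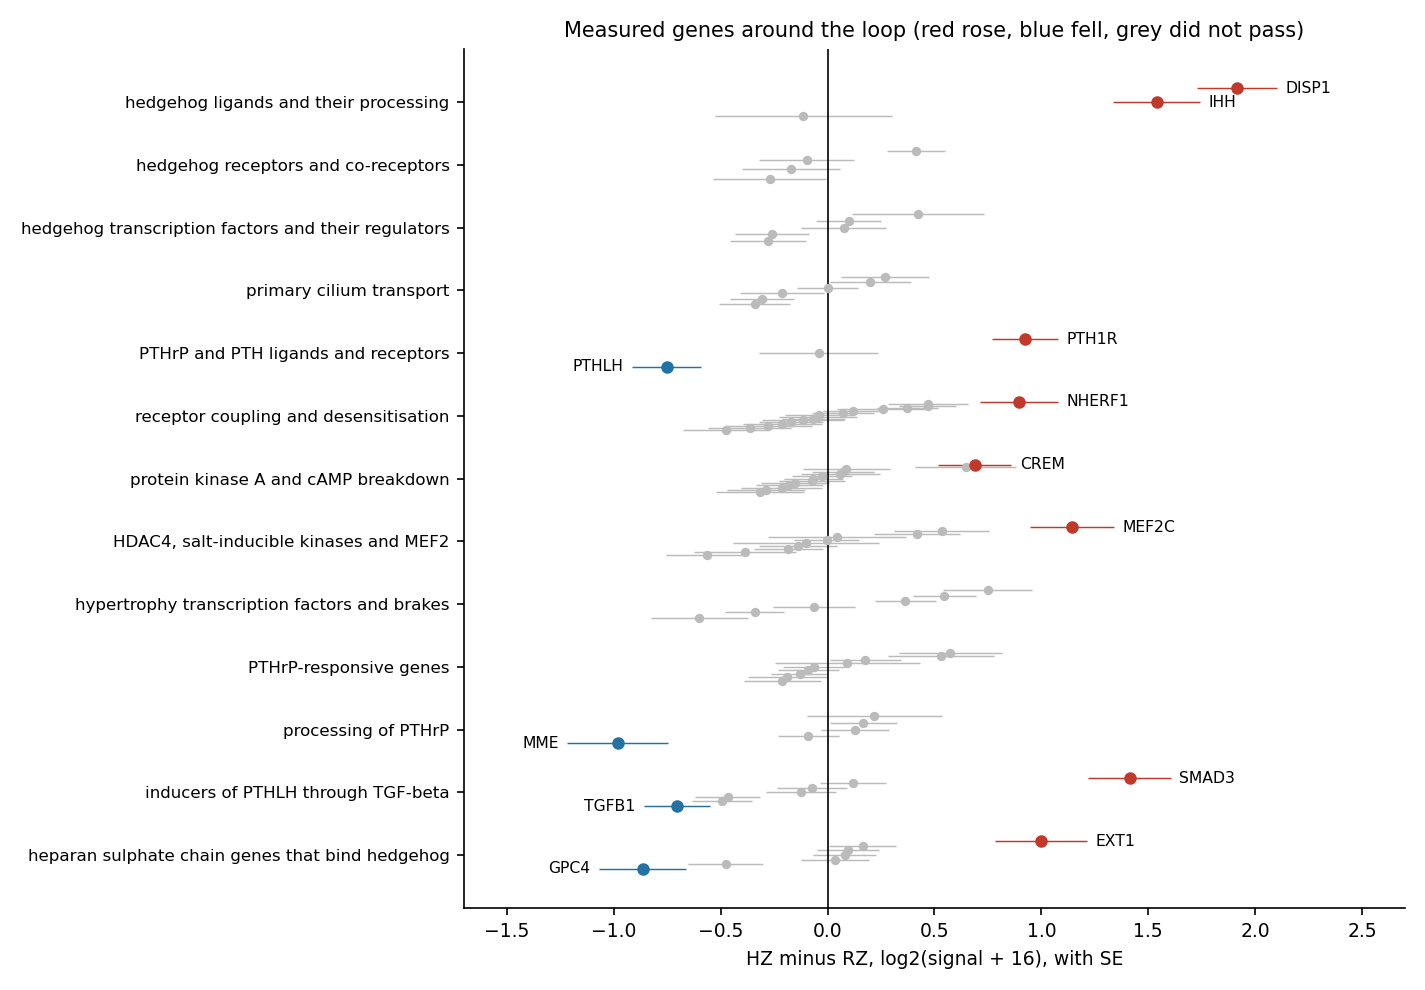
HZ minus RZ difference of log2(signal + 16) with limma SE for each measured gene around the loop, by role, red where it rose, blue where it fell and grey where it did not pass. DISP1 at 1.91 and IHH at 1.54 lie furthest to the right, MME at -0.98 and GPC4 at -0.87 furthest to the left among genes that passed.

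Genes with the most similar pattern were sought among 7848 probe sets with 1 gene symbol and a mean signal of at least 100. Here a gene with several probe sets is represented by the one with the highest r, not the brightest. Over the 12 arrays, the 5 closest to IHH were P3H2 (r = 0.96), PRKCD (0.96), KCNK5 (0.93), PTPA (0.92) and EGLN1 (0.92). P3H2 hydroxylates collagen, PRKCD is protein kinase C delta, KCNK5 is a potassium channel and EGLN1 an oxygen-sensing hydroxylase. The 5 closest to PTH1R were CTNNBIP1 (0.95), an inhibitor of beta-catenin, P3H2 (0.94), PRKCD (0.94), CNN2 (0.93) and TMEM127 (0.93). P3H2 and PRKCD thus stood in both groups. The CTNNBIP1 probe set with that r rose by 0.72 ± 0.15 (SE, limma adjusted p = 0.0212). The brightest CTNNBIP1 probe set did not pass, at 0.68 ± 0.19 (SE, limma adjusted p = 0.0697). P3H2 read 5551 ± 1529 in HZ and 2883 ± 680.05 in RZ, and PRKCD 365 ± 125 in HZ and 182 ± 47.4 in RZ (SD, n = 6 each).

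For PTHLH the 5 closest over the arrays were ARMCX3 (r = 0.92), SEC22A (0.90), the chloride channel protein CLIC1 (0.89), galectin-3 (LGALS3, 0.88) and the protease PRSS35 (0.88). Of these PRSS35 fell, by 0.81 ± 0.20 (SE, limma adjusted p = 0.0426), and of the 6 fits that dropped a pair only the one without pair 3 kept its call. An r over the 6 pair differences rests on 6 points, was picked as among the highest of the 7848 probe sets and carries no test. By that measure other genes came first. They were GPX3 (0.99), TMEM63B (0.99), UBTD1 (0.98), SH3BP5L (0.97) and IER2 (0.96) for IHH, SLC6A8, PTS, PLCD1, SCPEP1 and VNN1 (0.996 to 0.98) for PTHLH, and BABAM2, SRP68, RDH10, STRN3 and CELF6 (0.99 to 0.97) for PTH1R. Of these 15 only IER2 had passed in the zone comparison, and it lost its call without pairs 1, 4, 5 or 6 (limma adjusted p up to 0.0930).

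Genes beside the loop genes on the chromosome were looked up in the RefSeq table of assembly ARS-UCD2.0, a choice made after the data were seen. Of the 3 nearest protein-coding genes on each side of each loop gene, 18 in all, 7 were measured, 3 rose and 4 did not pass. NHEJ1, a DNA repair gene next to IHH, had a signal of 203 to 554 in HZ, against 82.9 to 126 in RZ, without overlap. It rose by 1.74 ± 0.20 (SE, limma adjusted p = 0.00213) in 6 of 6 pairs. In mice, enhancers of Ihh lie within Nhej1. CRYBA2, a lens crystallin on the other side of IHH beyond 1 unmeasured gene, was dim, at 4.19 to 149 in HZ and 2.73 to 8.86 in RZ.

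CRYBA2 rose by 1.56 ± 0.29 (SE, limma adjusted p = 0.0151), and it lost the call without pair 4 (adjusted p = 0.0526). Its difference was 0.05 in pair 2, where both arrays were near the floor, at 4.19 in HZ-2 and 3.57 in RZ-2. CNPPD1, the third gene on the NHEJ1 side, gave 0.41 ± 0.17 and did not pass. Next to PTH1R, the myosin light chain gene MYL3 had a signal of 305 to 814 in HZ, against 86.0 to 191 in RZ, and rose by 1.59 ± 0.18 (SE, adjusted p = 0.00198) in 6 of 6 pairs. Around PTHLH, ERGIC2, FAR2 and MRPS35 were measured and did not pass, at -0.06, 0.24 and -0.16.

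**Figure D4:**
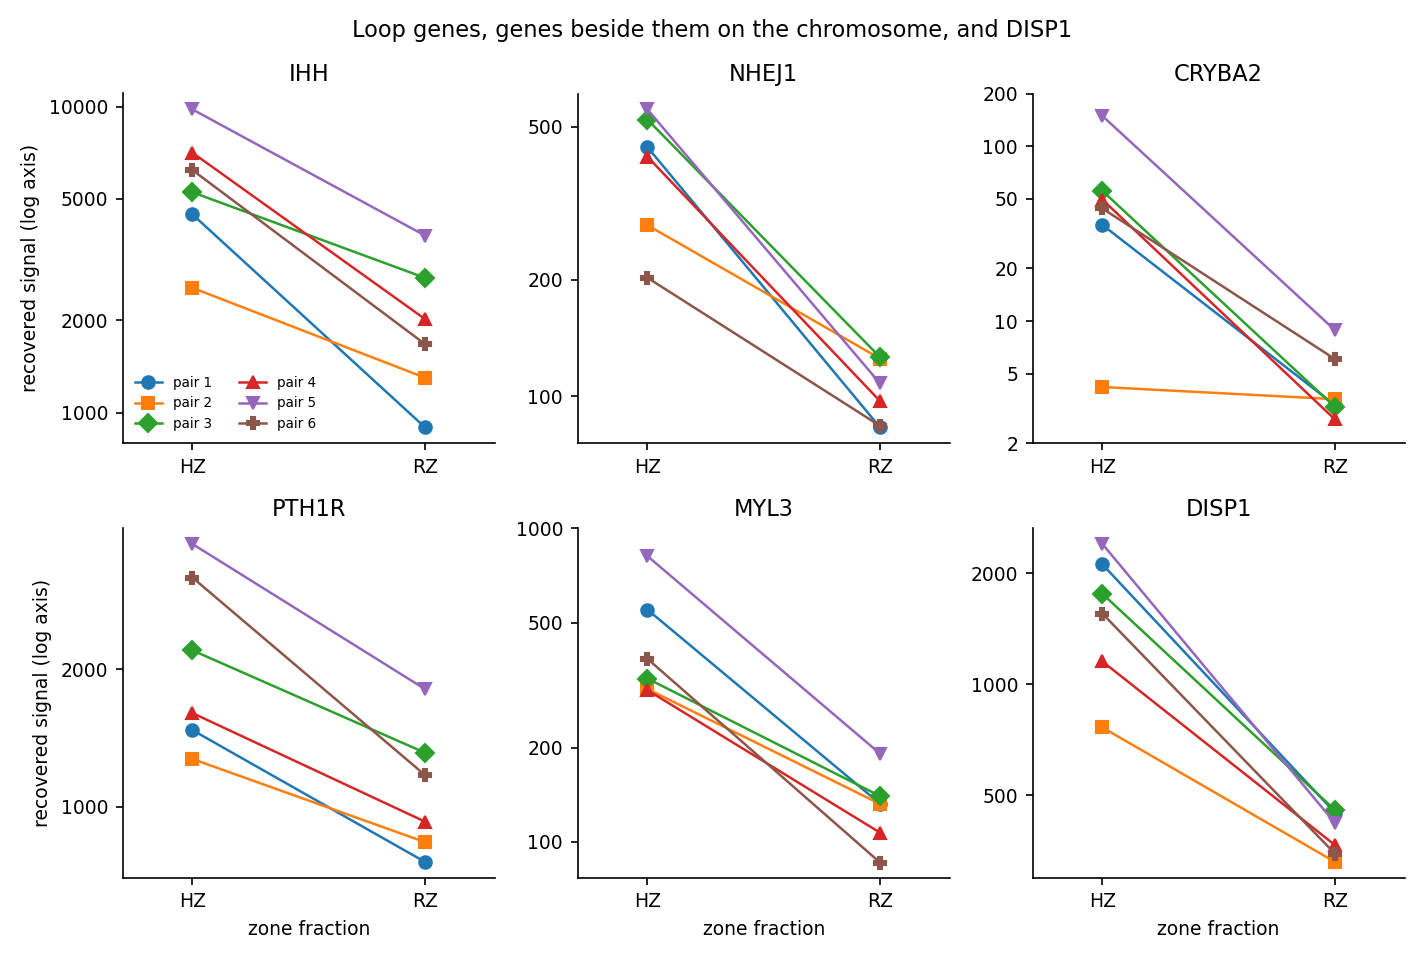
Recovered signal (log axis) on each array for IHH and its neighbours NHEJ1 and CRYBA2, for PTH1R and its neighbour MYL3, and for DISP1, HZ left and RZ right, lines joining pairs. NHEJ1, MYL3 and DISP1 separate the zones fully (NHEJ1 at 203 to 554 in HZ and 82.9 to 126 in RZ), while IHH and PTH1R do so within pairs.

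**Figure D5:**
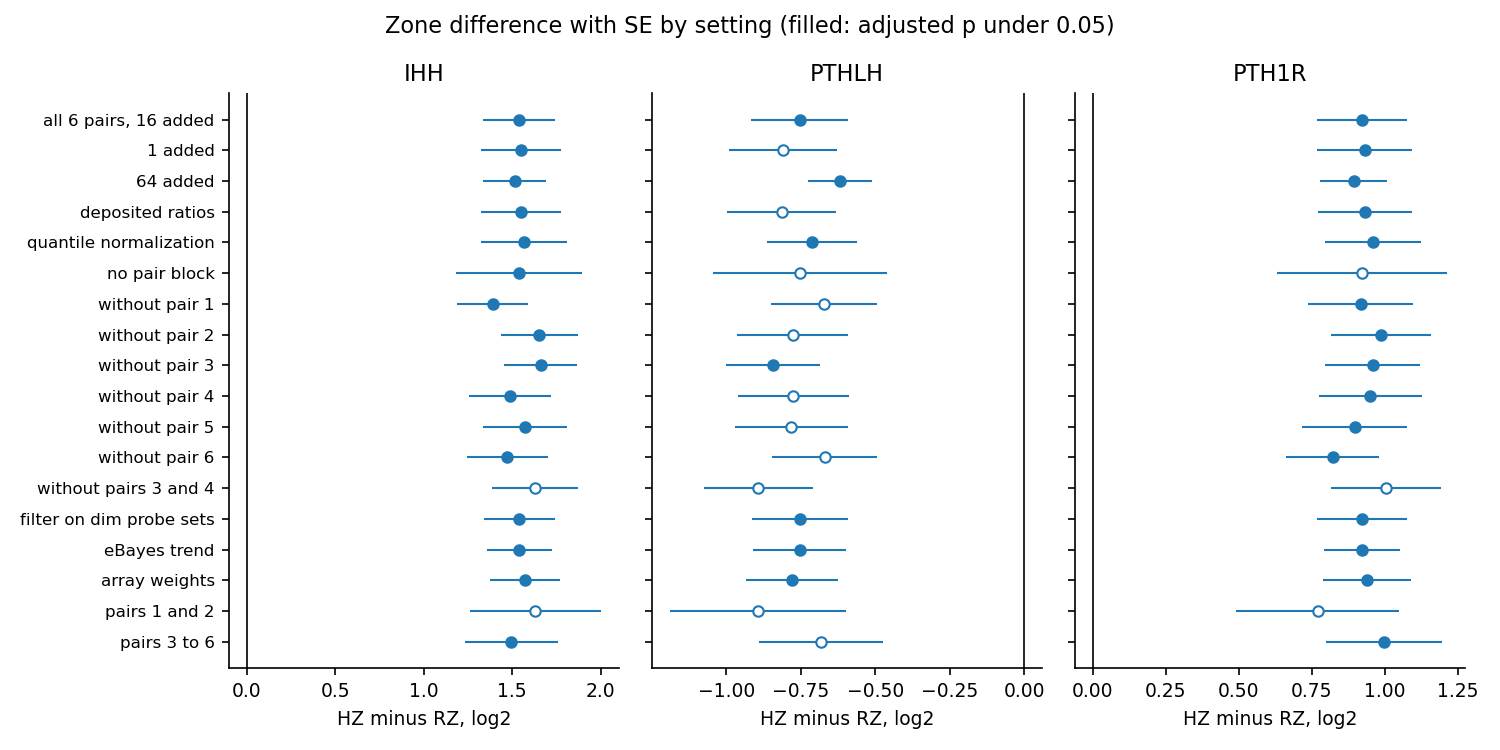
HZ minus RZ difference of IHH, PTHLH and PTH1R with SE under each setting, filled where the adjusted p was under 0.05. Each gene keeps its sign under every setting shown. PTHLH has the most open points, as in the fit without pair 1 at -0.67.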

How the data were processed

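Total RNA was labelled with biotin and read on 12 one-colour arrays, 6 HZ and 6 RZ, per the labels' protocols. The authors' deposited values are linear ratios, 1 per probe set and array. The sources used here do not give the scanner software, how probes were summarised or any normalization. Read from the values, 21901 of 24128 probe sets (90.8%) were divided by their median over the arrays and 2227 dim ones (9.23%) by 1 fixed value. Column medians of the ratio ran from 0.934 to 1.04. Because ratios hide the level, each signal was recovered from the whole-number steps of the ratios, which solved 24128 of 24128 probe sets. Each step was taken as 0.1 signal units, a value given in no source, and this choice sets the weight of the added constant of 16. The design had assumed such values, and no further normalization was made.

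The zones were tested in limma (version 3.58.1, R 4.3.3) by lmFit and eBayes on log2(signal + 16), the pair entering as a fixed block and leaving 5 residual degrees of freedom. The p-values were adjusted by Benjamini-Hochberg over the 24016 probe sets that are not the 112 controls. Both the recovery and the fit were tested on simulated data. The fit called 13.4% of simulated log2 changes of 0.75, 47.8% of those of 1 and 72.7% of those of 1.5. Of its calls 4.30% were false. Only 200 simulated probe sets were changed, while 1494 passed in the data. The adjustment depends on how many probe sets change, so these shares need not hold for the real fit. A gene that did not pass may still differ between the zones. The series description speaks of sample pairs and the titles number them. Same-numbered arrays deviated together, with correlations of 0.124 to 0.447, the lowest being that of pair 3. Each HZ array was closest to the RZ array of its own number, except in pair 3, so the match of that pair rests on its number alone. Single values were also tested with an exact sign-flip test over pairs.

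Symbols came from the platform annotation, with 13292 probe sets having 1 symbol, 86 several and 10638 none, and 13263 matched RefSeq by Entrez identifier. The 3 genes, the 13 lists around the loop and the 9 marker lists were chosen with earlier results of these data known. Named are the 3 genes, listed genes whose brightest probe set passed, a few fixed regulators, and for each loop gene the 5 closest genes by Pearson r. Alternatives were other constants, the deposited ratios, quantile normalization, no block, pairs left out, a filter on dim probe sets, a variance trend, array weights and subsets of pairs. Precision is limited by the number of arrays.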

Additional observations from a re-analysis of the deposited data

How the results depend on the processing

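IHH, PTHLH and PTH1R kept their direction under each of 17 alternatives. So did 42 other named genes or probe sets that had passed. Of these CRYBA2 had 16 alternatives, since the filter on dim probe sets removed it. The passing probe sets of IBSP, EXT1, COL11A1 and CD14 that were not the brightest were not run through the alternatives. IHH kept its call in 15, PTH1R in 14 and PTHLH in 6. Without the replicate block, PTHLH (-0.75, adjusted p = 0.197) and PTH1R (0.92, adjusted p = 0.107) did not pass, and IHH did (adjusted p = 0.0300). In that fit 22 of the 42 others passed. Those that did not were NHERF1, MEF2C, MME, PRSS35 and TGFB1 (adjusted p = 0.0537 to 0.708), the genes near PTH1R in pattern CTNNBIP1, CNN2 and TMEM127 (0.103 to 0.314), and the markers ACP5, C1QA, C1QB, CSF1R, PTPRC, CATHL1, MATN1, ALPL, APOE, CLU, BUB1B and MCM3 (0.0614 to 0.363). With 1 added, PTHLH gave -0.81 (adjusted p = 0.0696), and with the deposited ratios -0.81 (adjusted p = 0.0744). Leaving out a pair gave PTHLH -0.84 to -0.67, with the call kept only without pair 3. Without pairs 3 and 4, none passed (IHH 1.63, PTHLH -0.89, PTH1R 1.003). Within pairs 1 and 2, none passed (IHH 1.63, PTHLH -0.89, PTH1R 0.77), and within pairs 3 to 6 PTHLH did not (-0.68). These settings have fewer pairs. Other losses have a cause that was not tested. The number of probe sets that passed, 1494 (782 higher and 712 lower), became 583 with 1 added (368 and 215), 478 with the deposited ratios (315 and 163), 831 without the replicate block, 557 to 1540 with a pair left out, with 625, 632, 557 and 814 without pairs 1, 4, 5 and 6, 139 without pairs 3 and 4, 18 within pairs 1 and 2 and 404 within pairs 3 to 6. Averaging several probe sets of a gene gave no value, since each loop gene has 1. Dim probe sets such as those of PTCH1 and PTH limit what can be seen of them.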
